A study of Mus musculus with 4 samples.

Results

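The genes described here are 10 regulators of cell lineage that lie outside the Hox clusters: Gata4, Gata6, Sox17 and Foxa2 for endoderm, T and Eomes for mesoderm, Pax6, Olig2 and Neurog1 for the nervous system, and Cdx2 for trophoblast. They were listed by name as developmental regulators and Polycomb targets in mouse embryonic stem cells (ESCs), by a rule that uses no peak values but with earlier results of these data known, and make up 10 of the 37310 genes of the annotation. All 10 are protein-coding, as are 22380 of the annotated genes. For each gene, the question was whether a peak of Myc or of its partner Max lay near a transcription start site (TSS), how far the nearest peak was, and whether an E-Box lay under it.

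Myc sites were mapped by chromatin immunoprecipitation and sequencing (ChIP-Seq) with streptavidin beads, in 1 stable clone derived from E14 mouse ESCs. The clone carried Myc with an N-terminal tag that the BirA ligase biotinylates (Bio-Myc), driven by the ubiquitous EF1α promoter, so the Bio-Myc peaks are those of an added Myc and of 1 clone. Max sites were mapped with an antibody against Max in the unmodified parental E14 line, which is wild type and carries no tagged Myc. Peaks were called against a mock streptavidin ChIP for Bio-Myc and against an IgG ChIP in wild-type cells for Max. For the mock ChIP, the sample labels give parental wild-type cells, while the methods name BirA-ES cells with no tagged protein. Each ChIP is 1 library, so there are no replicates, no value below has an error between cultures, and no difference between the lists was tested. The cells, the reagent and the control differ between the lists together, and their parts in any difference cannot be told apart. The lists do not hold the read totals of the libraries, so the depth is unknown. A gene without a peak is one where none was called at a p-value of 1e-08, which does not show that the protein was absent. Expression and histone marks were not analysed here, so neither the cell type nor the Polycomb state of the genes could be checked in these data. The Bio-Myc list holds 3962 peaks and the Max list 11570.

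Lineage regulators of this kind encode transcription factors that direct a cell to a tissue. In undifferentiated ESCs most of them are silent or nearly so, and their CpG-rich promoters are known for carrying the Polycomb mark H3K27me3 together with the active mark H3K4me3. Myc and Max are basic helix-loop-helix leucine zipper proteins that bind DNA as a dimer, with the E-Box CACGTG as the preferred site. Max also pairs with itself, with Mxd proteins and with Mga, and dimers with the last of these take part in silencing by a variant Polycomb complex.

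The E-Boxes that lay under a Max peak at 3 of the genes are printed first, since they show which bases the Max peaks cover. Each is given 5′ to 3′ on the strand of the gene, in mm9, with 10 bases on either side. Capitals mark the E-Box.
Cdx2, chr5:148118424-148118429, minus strand: cggtggttacCACGTGgcggccgcgg
Olig2, chr16:91227560-91227565, plus strand: gccgcaccacCACGTGtcggctatgg
Pax6, chr2:105500024-105500029, plus strand: cttcctgagcCACGTGtctttcaggc
Pax6, chr2:105500359-105500364, plus strand: ggcagggggtCACGTGcgcccccgtc
The E-Box of Cdx2 was in the coding exon, 419 bp downstream of the TSS and 74 bp from the centre of its Max peak. That of Olig2 was also in the coding exon, 1767 bp downstream of the TSS and 27 bp from the peak centre. Both E-Boxes of Pax6 lay under the same Max peak, in an intron of the antisense gene Pax6os1, at 9027 and 8692 bp upstream of the nearest Pax6 TSS and 148 and 187 bp from the peak centre.

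No Bio-Myc peak was found within 1 kb of any annotated TSS of the 10 genes, whereas 3275 of all 22380 protein-coding genes had one (14.6%, 95% Wilson interval 14.2 to 15.1%, counting error only). The count was still 0 within 5 kb (16.6% of coding genes) and within 50 kb (36.1%). A count of 0 among 10 genes allows a share of up to about 30.0%, a rough limit taken as 3 in 10, for counting error only. This limit is above the share of all coding genes within 1 kb and 5 kb. The 10 genes were named with earlier results of these data known and are no random sample, so the limit is no test. Whether they differ from coding genes within 50 kb was not tested. Max peaks were present within 1 kb at 3 genes, T, Neurog1 and Cdx2, which is 30.0% against 34.8% of coding genes (7788 genes, 34.2 to 35.4%). Within 5 kb the Max count was 5 of 10, with Olig2 and Sox17 added, against 38.6%. Both Max shares were close to those of coding genes in general and are no result about these 10 genes. With no Bio-Myc peak, no gene had both peaks, against 12.7% of coding genes within 1 kb and 14.5% within 5 kb. A Max peak without a Bio-Myc peak was found at 3 of 10 genes within 1 kb (22.1% of coding genes) and at 5 of 10 within 5 kb (24.2%). The gene just inside the 1 kb limit was T, with a Max peak at 0.425 kb, and the gene just outside was Olig2, at 1.52 kb. At the 5 kb limit these were Sox17 at 3.71 kb and Pax6 at 8.60 kb.

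**Figure D1:**
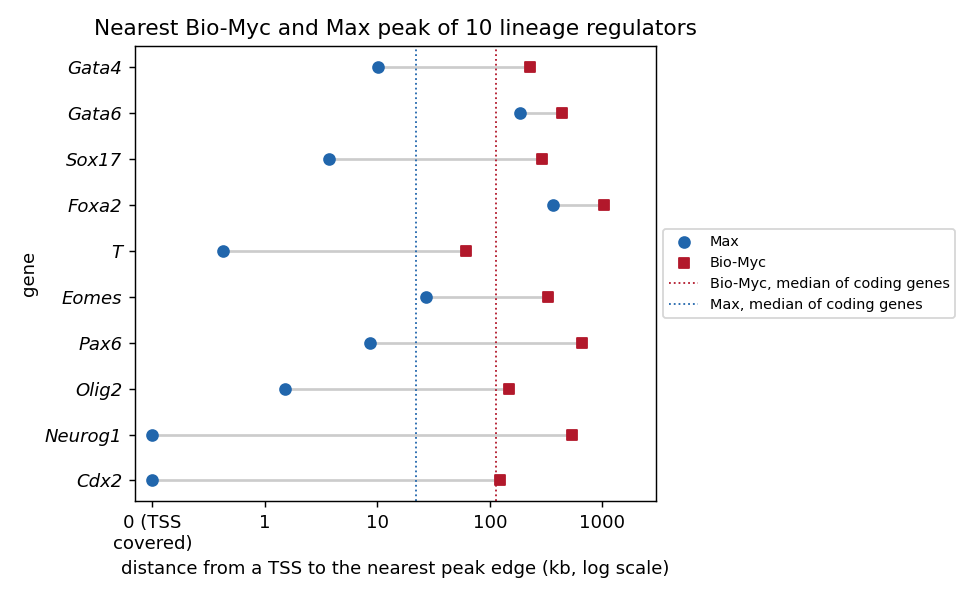
Distance in kb (log scale, with 0 for a covered TSS) from a TSS of each of the 10 genes to the edge of its nearest Max peak (blue circles) and nearest Bio-Myc peak (red squares), with the medians of all protein-coding genes as dotted lines. The Bio-Myc peaks lie between 61.0 and 1032 kb away, 9 of them beyond the coding median of 113 kb, while the Max peaks range from 0 to 361 kb.

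In the lists as deposited, the nearest Max peak was closer than the nearest Bio-Myc peak at each of the 10 genes. The count fell to 8 under a stricter p-value limit of 1e-15, where Gata6 had Max at 442 kb and Bio-Myc at 434 kb and Eomes had both at 327 kb, and to 6 with the Max list reduced to its 3962 highest-scoring peaks. The median distance was 308 kb for Bio-Myc (61.0 to 1032 kb) and 6.15 kb for Max (0 to 361 kb). The Max median was 47.9 kb at a p-value of 1e-15 or lower, where that of Bio-Myc was 427 kb, and 105 kb with the Max list reduced to the size of the Bio-Myc list. Over all coding genes the medians were 113 kb and 22.1 kb. The Max list holds more peaks, which by itself brings peaks closer to any gene. Against coding genes, 9 of the 10 were farther than the median from a Bio-Myc peak, T being the exception, and 3 of the 10 were farther than the median from a Max peak.

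The 4 endoderm genes had no Max peak within 1 kb (34.8% of coding genes had one), and 1 of the 4 had a Max peak within 5 kb (38.6% of coding genes). With 4 genes these counts do not set endoderm apart, and lineages were not compared by a test. Sox17, an HMG-box factor needed for definitive endoderm (ENSMUSG00000025902.7, chr1:4481009-4486494, minus strand), had a Max peak of 798 bp and score 192 at chr1:4481937-4482734. The score is the negative log10 of the peak caller's p-value times 10, and 59.8% of the Max list scored lower. The peak lay 3710 bp downstream of the TSS and was centred in the coding exon, so it was inside the gene and not at its promoter. Gata4, a zinc finger factor of endoderm and heart (ENSMUSG00000021944.8, chr14:63817759-63890529, minus strand), had a Max peak in one of its introns at chr14:63874214-63874848, 10.1 kb upstream of the nearest of its 6 annotated TSSs. Its score of 94.6 was low in the list, with 14.1% of peaks below it. Gata6, a related factor and regulator of primitive endoderm (ENSMUSG00000005836.8, chr18:11052508-11085633, plus strand), had no Max peak within 100 kb, the nearest being 186 kb upstream between genes with a score of 108. Foxa2, a forkhead factor that opens chromatin in endoderm and its organs (ENSMUSG00000037025.5, chr2:147868613-147872705, minus strand), was farthest from both lists, with the nearest Max peak 361 kb upstream at the thrombomodulin gene Thbd and the nearest Bio-Myc peak 1032 kb downstream at Xrn2, which encodes an exoribonuclease. Of the coding genes, 85.7% had a nearer Max peak than Foxa2 and 88.0% a nearer Bio-Myc peak.

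Of the mesoderm genes, T had a Max peak at the promoter and Eomes did not. T encodes Brachyury, the T-box factor of the primitive streak (ENSMUSG00000062327.3, chr17:8627288-8635361, plus strand). Its Max peak at chr17:8626190-8626863 was 674 bp wide with a score of 120, ended 425 bp upstream of the TSS and lay between genes. T was also the gene closest to a Bio-Myc peak, at 61.0 kb upstream (chr17:8565222-8566326, score 124), where the annotated gene T2 has a TSS and the peak is centred in an intron of Sft2d1. That Bio-Myc peak and the Max peak of T were 59.9 kb apart, so they are different sites. Eomes, a T-box factor of mesendoderm and of trophoblast (ENSMUSG00000032446.8, chr9:118387330-118395250, plus strand), had its nearest Max peak 27.0 kb downstream, at a TSS of the neighbouring Golga4, which encodes a golgin of the Golgi. The score of that peak was 117.

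The 3 neural genes had Max peaks at different places. Neurog1, a proneural helix-loop-helix factor of sensory neurons (ENSMUSG00000048904.4, chr13:56351866-56353524, minus strand), had the widest and highest-scoring Max peak among the 10 genes' peaks within 5 kb. It was 1439 bp wide at chr13:56352588-56354026 with a score of 278, above 76.2% of the list, and reached from -502 to 936 bp relative to the single TSS. Olig2, a helix-loop-helix factor of motor neurons and oligodendrocytes (ENSMUSG00000039830.8, chr16:91225795-91228922, plus strand), had a Max peak of 550 bp and score 124 at chr16:91227315-91227864, starting 1520 bp downstream of the TSS in the coding exon. Pax6, the paired-box factor of eye and forebrain (ENSMUSG00000027168.12, chr2:105509053-105543317, plus strand), has 29 annotated TSSs and no Max peak within 5 kb of any of them. Its nearest Max peak, at chr2:105499893-105500456 with a score of 103, was 8.60 kb upstream of the outermost TSS and carried the pair of E-Boxes printed above.

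Cdx2, the caudal-type homeobox factor of trophectoderm (ENSMUSG00000029646.3, chr5:148112381-148118846, minus strand), had 2 Max peaks, more than any other of the 10 genes within 5 kb. The peak at chr5:148118083-148118920 covered the TSS and the start of the coding sequence, with a width of 838 bp and a score of 152, near the middle of the list (47.0% below). The other, at chr5:148116182-148116722, lay 2124 bp downstream in an intron and had a score of 80.6, so that 0.666% of the Max list scored lower. At the promoter, Cdx2 was the only one of the 10 genes with both a Max peak and an E-Box.

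**Figure D2:**
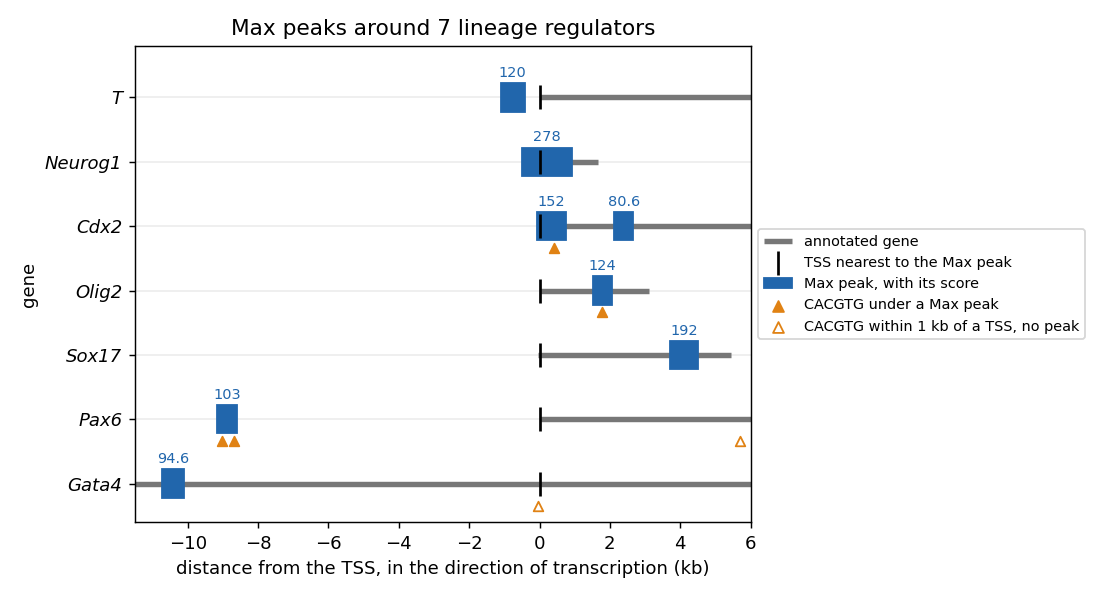
Max peaks (blue boxes, with scores) around the nearest TSS of 7 of the genes, in kb along the direction of transcription, with the annotated gene in grey, E-Boxes under a Max peak as filled triangles and E-Boxes within 1 kb of a TSS but under no peak as open triangles. The Max peaks of Neurog1 (278) and Cdx2 (152) cover the TSS and that of T (120) lies just upstream, while those of Olig2 (124) and Sox17 (192) lie in the coding exon and those of Pax6 (103) and Gata4 (94.6) farther upstream.

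The 6 Max peaks within 5 kb of a TSS had scores of 80.6 to 278 (median 138) and widths of 541 to 1439 bp (median 736 bp), against medians of 160 and 820 bp for the whole list. Of the 6, those of T, Neurog1 and Cdx2 made up the 3 genes counted within 1 kb. Among the 3962 highest-scoring Max peaks, which all score at least 217, only the peak of Neurog1 remains. None of the 6 overlapped a Bio-Myc peak, while 26.2% of all Max peaks did. Bio-Myc overlap is less common among weaker Max peaks, and in the score range of the 6 it was 18.6% of 8743 peaks, or 23.1% of the 5369 at coding promoters. At these shares a count of 0 of 6 does not set the peaks apart. From the Max peaks, the nearest Bio-Myc peak was 59.9 kb away for T, 122 kb for the promoter peak of Cdx2, 145 kb for Olig2, 293 kb for Sox17 and 536 kb for Neurog1. The centres of 3 of the 6 peaks lay in coding exons (Sox17, Olig2 and Cdx2), as did those of 1834 Max peaks in all (15.9%). The CpG observed/expected ratio, which relates the CpG count of a sequence to that expected from its C and G content, was 0.736 to 0.838 under the 6 peaks, in each case above the median of the Max list (0.679). Max peaks at coding promoters without a Bio-Myc peak had a median of 0.738. The peak of T (0.736) was below this and the other peaks (0.744 to 0.838) were above it, so the ratio is not particular to these peaks.

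**Figure D3:**
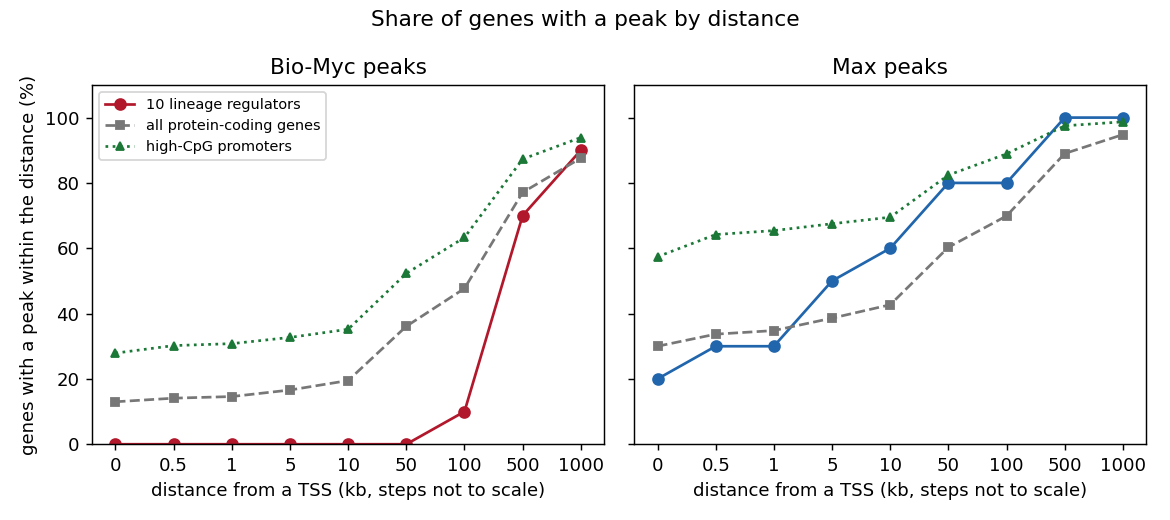
Share of genes (%) with a Bio-Myc peak (left) or a Max peak (right) within a distance of a TSS in kb, for the 10 lineage regulators (coloured circles), all protein-coding genes (grey squares) and coding genes with a high-CpG promoter (green triangles). The Bio-Myc line of the 10 genes stays at 0 to 50 kb and reaches 10% at 100 kb and 70% at 500 kb, while their Max line runs from 20% at the TSS to 80% at 50 kb.

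In wider windows too, fewer of the 10 genes had a Bio-Myc peak than a Max peak. This was also so for coding genes in general, with 47.7% against 69.9% within 100 kb. The Max list holds more peaks, the reduced Max list was not counted in these windows, and the difference was not tested. Bio-Myc peaks were within 100 kb of 1 of the 10 genes, within 500 kb of 7 and within 1000 kb of 9, against 47.7%, 77.1% and 87.6% of coding genes. Max peaks were within 10 kb of 6 genes, within 50 kb of 8 and within 500 kb of 10, against 42.7%, 60.3% and 89.0% of coding genes. Only Gata6 and Foxa2 had no Max peak within 100 kb.

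Since the CpG content of a promoter goes with the presence of peaks in both lists, it was measured within 500 bp of the outermost TSS of each gene. Coding genes with a ratio of at least 0.75 and a GC content of at least 55% were taken as the high-CpG class, 5569 genes or 24.9% of the coding genes. In this class 30.8% had a Bio-Myc peak within 1 kb, 65.4% a Max peak, 27.9% both and 37.5% a Max peak without Bio-Myc. Of the 10 genes only Neurog1 fell into the class, with a ratio of 0.756, and it had a Max peak and no Bio-Myc peak. Olig2 was just short of it at 0.743. Gata6 (0.656), T (0.647), Cdx2 (0.637) and Eomes (0.622) lay between 0.60 and 0.70, a range in which 50.2% of coding genes had a Max peak and 18.2% a Bio-Myc peak. T and Cdx2 had a Max peak at the promoter and Gata6 and Eomes did not, so genes with nearly the same ratio differed. Foxa2 (0.571) and Pax6 (0.567) followed, in a range where the shares were 38.6% and 11.8%. Sox17 (0.414) and Gata4 (0.174) had the lowest ratios, and in their ranges 24.9% and 5.06% of coding genes had a Max peak. The median ratio was 0.629 for the 10 genes and 0.549 for coding genes. The outermost TSS is not always the CpG-rich one: with the highest ratio over all TSSs of a gene, Eomes reached 0.866, Pax6 0.849, Foxa2 0.711 and Gata4 0.666, and 9 of the 10 genes were above the coding median of 0.602, Sox17 at 0.437 being below it.

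**Figure D4:**
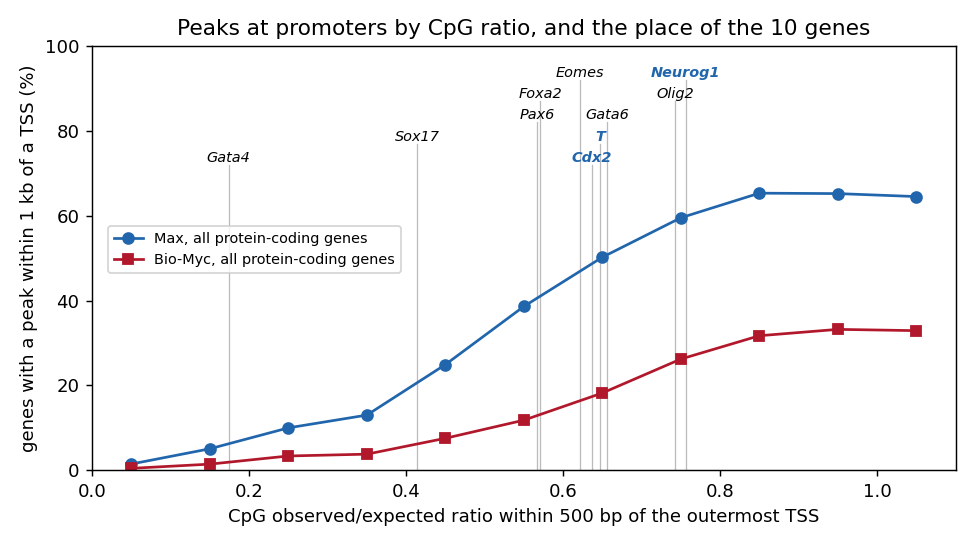
Share of protein-coding genes (%) with a Max peak (blue) or a Bio-Myc peak (red) within 1 kb of a TSS, by the CpG observed/expected ratio around the outermost TSS, with a grey line at the ratio of each of the 10 genes and the names of the 3 genes with a Max peak in blue. Both shares rise with the ratio, to 65.3% and 31.7% between 0.80 and 0.90, and the genes with a Max peak (T, Cdx2 and Neurog1) lie between 0.637 and 0.756.

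An E-Box was present within 1 kb of a TSS in Gata4, Pax6 and Cdx2, 3 of the 10 genes, against 39.0% of coding genes. Such promoters had peaks more often among coding genes in general, with Bio-Myc at 23.9% and Max at 50.5% of the 8736 genes with an E-Box and at 8.69% and 24.8% of those without. Of the 3, only the E-Box of Cdx2 was under a Max peak. The E-Box of Gata4 is shown because it lay close to a TSS and under no peak, in an intron of the gene 57 bp upstream of the TSS at 63864108.
Gata4, chr14:63864162-63864167, minus strand: cccgcccttgCACGTGactcccttag
The E-Boxes of Pax6 without a peak were both in untranslated exons, at chr2:105514749-105514754, 515 bp upstream of a TSS, and at chr2:105529709-105529714, 99 bp downstream of another. A gene with many TSSs has a longer promoter region in which to find an E-Box, and with the outermost TSS alone only Cdx2 kept one (27.8% of coding genes). Within 5 kb, 8 of the 10 genes held at least 1 E-Box, against 75.7% of coding genes. Gata4, Gata6, Foxa2, Eomes and Pax6 were among the 8 and had no Max peak there, while Olig2, Neurog1 and Cdx2 were among them and had Max peaks. T and Sox17 held none within 5 kb and had Max peaks.

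The nearest Max peak held an E-Box in 3 of the 10 genes (Pax6, Olig2 and Cdx2), against 38.0% of all Max peaks. At coding promoters without Bio-Myc, 29.4% of 5106 Max peaks held one. The related word CACGCG, searched on both strands and counted apart from CACGTG, occurred under the nearest Max peak of 6 genes (Gata4, Sox17, T, Eomes, Neurog1 and Cdx2), against 40.1% of all Max peaks and 33.2% of coding promoters within 1 kb of the outermost TSS. Either word was under the nearest Max peak of 8 genes, against 63.6% of the list. The shares of the 10 genes differ from those of the list by few genes, and a match is a description of the sequence and not of binding. The CACGCG sites of T, Neurog1 and Sox17 are shown because their Max peaks held no E-Box. They are given on the strand that reads CACGCG, which is in capitals.
T, chr17:8626786-8626791, minus strand: tctccactccCACGCGctgtccaagc
Neurog1, chr13:56353471-56353476, plus strand: ctgcaggggcCACGCGccgggctggt
Sox17, chr1:4482124-4482129, minus strand: gcgcggtttcCACGCGcaaccccagc
Sox17, chr1:4482535-4482540, plus strand: catccatggcCACGCGgccgccctcg
Sox17, chr1:4482679-4482684, plus strand: gcatatgctgCACGCGcagccgctcg
The site of T was 500 bp upstream of the TSS and that of Neurog1 was 51 bp downstream of it, in an untranslated exon. Those of Sox17 were 4318, 3907 and 3763 bp downstream of the TSS, in the coding exon.

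The nearest Bio-Myc peaks all belonged to other genes: each of the 10 lay within 1 kb of a TSS of a gene outside the list, as did 75.3% of the Bio-Myc list. For Cdx2 the peak was 122 kb upstream at Pan3, which encodes a subunit of an mRNA deadenylase, with a score of 137. For Olig2 it was 147 kb downstream at the interferon receptor gene Ifnar2 (138), and for Gata4 228 kb upstream at the threonine dehydrogenase gene Tdh (111). For Sox17 it was 289 kb upstream at Mrpl15, a gene of the mitochondrial ribosome (143), and for Eomes 327 kb upstream at Cmc1 and Gm17399 (158). The highest score among these peaks was that for Gata6, 420 at the spliceosome gene Snrpd1, 434 kb upstream. The peak for Neurog1 was 537 kb downstream at Txndc15 (129) and that for Pax6 652 kb upstream at Ccdc73 and the translation initiation factor gene Eif3m (102). Of the 10 peaks 5 overlapped a Max peak (Sox17, Foxa2, Eomes, Pax6 and Olig2), against 74.9% of the Bio-Myc list. The Bio-Myc peak nearest T counted as not overlapping, although a Max peak lay 16 bp from it. An E-Box was under the nearest Bio-Myc peaks of T, Eomes and Foxa2, 3 of 10, against 50.1% of the list.

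The surroundings of the genes were poor in Bio-Myc peaks and in genes. Within 100 kb of the 10 genes there was 1 Bio-Myc peak in all, that near T, and there were 20 Max peaks. The median per gene was 2 Max peaks and 0 Bio-Myc peaks, the same as for all coding genes. No Bio-Myc peak was within 100 kb of 9 of the 10 genes, as for 50.4% of coding genes and 34.1% of the high-CpG class. Max peaks numbered 5 around Cdx2, 4 around Gata4, 3 around T, 2 each around Sox17, Pax6 and Olig2, 1 each around Eomes and Neurog1, and none around Gata6 and Foxa2. The median number of other coding genes within 100 kb was 1.5 for the 10 genes and 4 for coding genes, and Gata6, Sox17, Foxa2 and Pax6 had none. Of the 13 coding genes found around the other 6, none had a Bio-Myc peak within 1 kb (14.6% of coding genes). A Max peak was within 1 kb of 6 of the 13 (34.8% of coding genes). Except around T, no Bio-Myc peak lay within 100 kb, so the lack of Bio-Myc at these neighbours largely repeats the count above. The part of gene density in the distances to Bio-Myc was not tested.

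The same counts were made for related genes. The list of 36 family members of the 10 genes held GATA, SoxF, T-box, Pax, Olig, Neurog, Foxa and Cdx genes. Mga, which also has a T-box, was left out of it by choice. None of the 36 had a Bio-Myc peak within 1 kb or 5 kb, and 10 had a Max peak within 1 kb (27.8%), with 14 within 5 kb. The 10 were Olig1 (score 351), Sox18 (324), Pax5 (260), Tbx20 (230), Cdx1 (169), Neurog2 (132), Gata3 (121), Neurog3 (104), Tbx3 (95) and Gata5 (94.6). Olig1, the neighbour of Olig2 and like it a regulator of oligodendrocytes, thus had a stronger Max peak at its TSS than the peak inside Olig2 (124). Neurog1, Neurog2 and Neurog3, all proneural factors, each had a Max peak within 1 kb, with scores of 278, 132 and 104.

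Of 36 other lineage regulators found in the annotation, 1 had a Bio-Myc peak within 1 kb and 12 had a Max peak (33.3%). The 6 further endoderm genes had none in either list. Among the 13 further mesoderm genes, Mesp2 (892), Mesp1 (383), Snai1 (197), Myod1 (124) and Hand1 (85.9) had a Max peak. Mesp1 and Mesp2 are neighbouring helix-loop-helix genes of early mesoderm. Among the 12 further neural genes these were En2 (243), Lhx2 (157), Zic1 (123) and Neurod1 (114). Among the 5 further trophoblast genes they were Ascl2 (927), Tead4 (635) and Tfap2c (334). Ascl2, a helix-loop-helix factor of the trophoblast, was the gene with the Bio-Myc peak, at chr7:150153266-150154511 with a score of 84.3, near the lowest score of the list (80). Together with the 10 genes, 82 lineage regulators and relatives had 1 Bio-Myc promoter (1.22%) and 25 Max promoters (30.5%). Without the 10 genes the shares were 1.39% and 30.6% of 72 genes, beside 14.6% and 34.8% of coding genes. The lists were not tested against other genes.

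For comparison, the 39 Hox genes had no Bio-Myc peak within 1 kb (14.6% of coding genes) and 7 with a Max peak (17.9%, against 34.8%). Among these were Hoxd1 (634), Hoxa7 (274), Hoxa4 (253), Hoxc10 (227), Hoxc12 (150) and Hoxd10 (80.8). Within 5 kb, 1 Hox gene had a Bio-Myc peak, together with a Max peak, and 10 had a Max peak (25.6%). The shares of coding genes there were 16.6% and 38.6%. Of 14 pluripotency factors, 9 had a Max peak within 1 kb (64.3%, against 34.8% of coding genes). A Bio-Myc peak was found at 2 (14.3%, against 14.6%), which is the share of coding genes in general and no result about these factors. The Bio-Myc peaks were at Stat3 (167) and Esrrb (95.4), and the Max peaks at Stat3 (558), Klf2 (380), Klf5 (304), Esrrb (236), Sox2 (188), Tfcp2l1 (181), Sall4 (176), Pou5f1 (97.0) and Nr5a2 (93.1). The median distance to a Max peak was 0.150 kb for the pluripotency factors, 6.15 kb for the 10 lineage regulators, and 11.7 and 12.5 kb for the family members and the other lineage regulators. The median distance to a Bio-Myc peak was 128 kb, 308 kb, 165 kb and 247 kb in the same order. For the Hox genes the medians were 12.5 kb to Max and 161 kb to Bio-Myc, and for all coding genes 22.1 kb and 113 kb. The pluripotency factors were thus also farther from Bio-Myc than coding genes by the median, and each of these lists was nearer to Max. Differences between the lists were not tested.

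**Figure D5:**
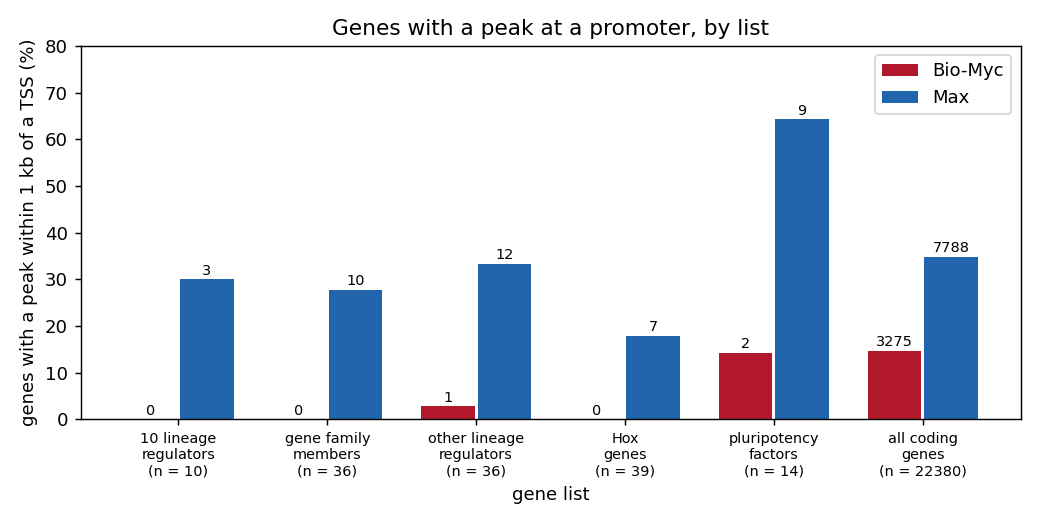
Share of genes (%) with a Bio-Myc peak (red) or a Max peak (blue) within 1 kb of a TSS for the 10 lineage regulators, their family members, other lineage regulators, Hox genes, pluripotency factors and all protein-coding genes, with the number of genes above each bar. The Bio-Myc bars of the 3 lists of lineage regulators and relatives are at 0, 0 and 1 gene, while their Max bars (3, 10 and 12 genes) are between 27.8 and 33.3%.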

How the data were processed

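Per the methods and the processing notes of the submitters, sequencing was on a HiScanSQ instrument and CASAVA 1.8 was among the tools. The authors aligned the reads to mm9 by Bowtie 0.12.7, where a read had to hit 1 place with no more than 2 mismatches, removed redundant reads, and used MACS 1.4.1 with the mock or IgG ChIP as control. Unique mapping leaves out most repeated sequence. In the 2 deposited lists each peak has a position and a score, equal to 10 times the negative log10 of its MACS p-value. In both lists scores start at 80, and the number of peaks depends on the unknown number of reads. The mock and IgG libraries were not analysed on their own.

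The annotation was GENCODE M1 on NCBIM37, the assembly of mm9, and 0 peaks ran past a chromosome end. A peak counted when it overlapped by at least 1 bp the region within 1 kb, or 5 kb, of any TSS. Distances ran to the nearest peak edge. Among coding genes, 30 lie on chromosomes with no Bio-Myc peak and were counted as farther than any limit. Motifs were counted on both strands under whole peaks. Of 37 other lineage regulators 36 were found by name (Tfap2c and Tfcp2l1 under older symbols, and Sox1 was not matched), and Hoxa3, annotated as 2 genes, counted once. The text names the 10 genes, each listed gene with a peak within 1 kb apart from 1 that is not reported here, and genes at the nearest peaks. The members and the lists were chosen with earlier results of these data known. With 1 library per ChIP no test was made, and 95% Wilson intervals cover counting error only. The alternatives were other windows, the outermost TSS, a p-value of 1e-15 or lower, peak centres, a Max list reduced to the size of the Bio-Myc list and other E-Box rules. Python 3.11.15, numpy 2.4.6, scipy 1.17.1, pysam 0.24.0, matplotlib 3.10.9 and samtools 1.23.1 were used, and 4 of 4 steps gave the known answers on simulated data.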

Additional observations from a re-analysis of the deposited data

How the results depend on the processing

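The count of 0 genes with a Bio-Myc peak stayed at 0 within 5 kb, within 10 kb and from 3 kb upstream to 2 kb downstream. Only these wider windows could have raised it, since the other alternatives narrow the window or shorten a list. With no Bio-Myc peak, the count with both peaks is 0 in every alternative by definition. The 3 genes with a Max peak within 1 kb became 5 within 5 kb, 6 within 10 kb and 1 with the Max list reduced to its 3962 highest-scoring peaks, and stayed between 2 and 4 otherwise. The median distance to a Max peak, 6.15 kb, became 47.9 kb at a p-value of 1e-15 or lower and 105 kb with the reduced list, as fewer peaks were left. With CACGTG or CACGCG as the E-Box, the genes whose nearest peak held one rose from 3 to 6 (Bio-Myc) and from 3 to 8 (Max), and at a p-value of 1e-15 or lower, where other peaks become the nearest, both counts were 5. The 3 genes with an E-Box in the promoter became 8 within 5 kb, 1 with the outermost TSS and 1 when only E-Boxes under a Max peak counted. This last choice, and leaving chromosome 8 out of the background (33.5% in place of 34.8% of coding genes with a Max peak), were added after the data were seen. Chromosome 8 holds 1357 of the 11570 Max peaks and 214 of the 3962 Bio-Myc peaks, and none of the 10 genes lies on it. Of 60 single-gene distances recomputed, 46 stayed within 1.5 times their value and 14 moved, 10 of them at the stricter p-value. No paired analysis was possible because each ChIP is 1 library. Read depth is unknown, so the lack of a called peak is no measure of absence.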

Other observations

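Other words were counted under the same 6 Max peaks within 5 kb of the genes. The E2F word GCGGGAA, on either strand, occurred under the peak of T alone, against 20.0% of the Max list, and the T-box word GGTGTGA under none, against 12.8%. CATGTG, a variant E-Box, was under the peaks of Sox17 and Olig2, against 32.6% of the Max list.

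The genes differed in how much a stricter p-value moved their nearest peak. At a p-value of 1e-15 or lower the Max peaks of Neurog1, Cdx2 and Sox17 stayed in place, while the nearest Max peak of T moved from 0.425 to 92.3 kb, that of Olig2 from 1.52 to 43.9 kb and that of Pax6 from 8.60 to 52.0 kb. For Eomes it moved from 27.0 to 327 kb, to a Max peak with a score of 645 that overlapped the Bio-Myc peak at Cmc1 and Gm17399. The nearest Bio-Myc peak of T moved from 61.0 to 1594 kb, while those of Gata6, Eomes and Foxa2 stayed in place.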
